A study of Mus musculus with 12 samples.

Results

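The genes described here are 10 regulators and markers of blood stem and progenitor cells, measured on 12 expression arrays of mouse HoxB8-ER myeloid cells. They are the transcription factor genes Myb, Meis1, Hlf, Erg, Runx1 and Mecom, the receptor gene Flt3, the surface protein genes Cd34 and Prom1, and the secreted ligand gene Angpt1. Each was taken from the array row annotated to that symbol alone, and each had 1 such row, so 10 of the 30142 genes with a row of their own are covered. To make such cells, progenitors from bone marrow are given HOXB8 joined to part of the estrogen receptor, which immortalizes them. Estradiol at 0.5 µM holds them as dividing promyelocyte-like cells, and they become neutrophils within 6 days of its removal.

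The arrays formed 6 groups of 2, all on the C57BL/6 background and all carrying HOXB8-ER. Undifferentiated cells and the neutrophils derived from them were each wild type or Ezh2-/-, and 2 more groups were wild-type neutrophils given GSK343 or its vehicle. EZH2 is the histone methyltransferase of Polycomb repressive complex 2, and GSK343 inhibits its enzyme activity. For GSK343 the sample labels state 9 days at 0.5 µM, whereas the design text states 1 µM, and the dose used is uncertain. Wild-type and Ezh2-/- marrow came from littermates. The labels say neither how many lines were made nor whether replicates were separate cultures, so genotype and cell line cannot be told apart. The p-values here thus reflect variation among arrays that could be technical.

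These genes belong to the network that keeps blood precursors immature. MYB drives the division of progenitors, MEIS1 binds DNA together with HOXA9, and HLF and MECOM mark and maintain stem cells. RUNX1, with its partner CBFB, is needed to form stem cells and remains in use in mature myeloid cells. The ETS factor ERG is needed to form and keep stem cells. FLT3 is a receptor tyrosine kinase of multipotent progenitors, CD34 is a sialomucin of stem and progenitor cells, and PROM1 (CD133) is a membrane glycoprotein used as a stem cell marker. Angiopoietin 1, the product of Angpt1, is the ligand of the TEK (TIE2) receptor.

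Promoter sequence is shown for 4 of the genes, because Polycomb complex 2 is known to act at CpG-rich promoters and the 4 differ in CpG content. They were the genes with the 2 lowest and the 2 highest CpG ratios at their most upstream start, among members whose level changed by over 2 log2 units. Each run is the 250 bases before the gene's start in RefSeq (GRCm38.p6), written 5′ to 3′ on the gene's strand, with CG dinucleotides in capitals. Prom1 lies on the minus strand (chr5:44101737-44101986), Cd34 on the plus strand (chr1:194938571-194938820), Myb on the minus strand (chr10:21160985-21161234) and Erg on the minus strand (chr16:95586594-95586843).
Prom1: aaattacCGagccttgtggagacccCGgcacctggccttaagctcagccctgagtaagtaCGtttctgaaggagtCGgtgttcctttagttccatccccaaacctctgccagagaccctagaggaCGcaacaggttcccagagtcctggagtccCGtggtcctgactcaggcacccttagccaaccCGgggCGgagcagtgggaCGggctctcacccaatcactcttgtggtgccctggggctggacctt
Cd34: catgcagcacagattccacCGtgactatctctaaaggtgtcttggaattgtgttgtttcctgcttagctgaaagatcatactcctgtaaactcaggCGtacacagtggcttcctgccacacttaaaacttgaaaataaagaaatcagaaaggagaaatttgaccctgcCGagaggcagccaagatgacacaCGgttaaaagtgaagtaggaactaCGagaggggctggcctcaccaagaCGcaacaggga
Myb: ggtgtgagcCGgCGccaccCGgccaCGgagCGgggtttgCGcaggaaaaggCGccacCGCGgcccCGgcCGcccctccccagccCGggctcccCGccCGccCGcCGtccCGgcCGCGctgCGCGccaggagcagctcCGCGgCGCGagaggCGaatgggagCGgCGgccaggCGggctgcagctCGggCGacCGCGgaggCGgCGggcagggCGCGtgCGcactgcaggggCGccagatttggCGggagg
Erg: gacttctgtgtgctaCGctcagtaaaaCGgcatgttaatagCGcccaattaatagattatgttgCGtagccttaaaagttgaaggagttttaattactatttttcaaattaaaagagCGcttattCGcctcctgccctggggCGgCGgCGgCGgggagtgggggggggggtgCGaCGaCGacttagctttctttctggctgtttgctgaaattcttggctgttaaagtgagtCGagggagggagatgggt
The windows of Myb and Erg held 40 and 14 CG dinucleotides, with observed-to-expected CpG ratios of 0.97 and 1.03. These ratios lay above those of 92.8% and 95.6% of the 32851 mouse promoters in the table, whose median was 0.37. Erg has 2 further starts downstream, with ratios of 0.25 and 0.23, both under that median. The windows of Cd34 (6 CG, ratio 0.45) and Prom1 (9 CG, ratio 0.41) lay nearer that median, and the second start of Prom1 was at 0.19. Hlf (0.93) was also CpG-rich, Meis1 and Flt3 (0.60 each) were intermediate, and Runx1 had an upstream start at 0.17 and a downstream start at 0.98. Mecom, not printed because no change of it was called, had the highest ratio of the members at its upstream start (1.05). Its second start was at 0.51. Over the 14 windows of the 9 members in the table, the RUNX motif TGTGGT was found in 2, the ETS motif GGAAGT in 3, the MEIS motif TGACAG in 2 and the GATA motif AGATAA in 1. Letters were searched on both strands, motifs were counted separately, and among all promoters the shares with a match were 14%, 19.7%, 15.9% and 10%. No chromatin or binding was measured in this study, and these matches describe the letters only.

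The deposited values are log2 signals, so a difference of 1 is a factor of 2 in signal. The genotype arrays and the drug arrays differed in overall level. The median signal of all clusters ranged from 4.54 to 4.65 in the former 8 and from 3.88 to 3.96 in the latter 4, so values are compared within each of these sets. The background of an array, defined as the 95th percentile over its 23 antigenomic controls, ranged from 4.83 to 5.79. Of the 120 member values, 86 lay above it. Arrays of a group correlated at Pearson r of 0.984 to 0.995 across clusters, the lowest being the undifferentiated Ezh2-/- pair. GSK343 array 2 lay slightly closer to vehicle array 2 (0.9947) than to its own replicate (0.9935). Ezh2 itself was lower in undifferentiated Ezh2-/- cells (9.10 and 9.44) than in wild type (11.57 and 11.65). In neutrophils it was not lower in Ezh2-/- arrays (8.74 and 9.02) than in wild type (8.31 and 8.34). The labels give neither the deleted part of Ezh2 nor the position of its probes. These neutrophils are therefore called "neutrophils labelled Ezh2-null", with each direction resting on that label. Neutrophil maturation genes such as Ltf and Camp were above background on both arrays for 14 of 14 genes in every neutrophil group. Primary granule genes summed to between 18.18 and 18.31 in wild-type undifferentiated arrays and to between 8.84 and 9.07 in wild-type neutrophils.

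**Figure D1:**
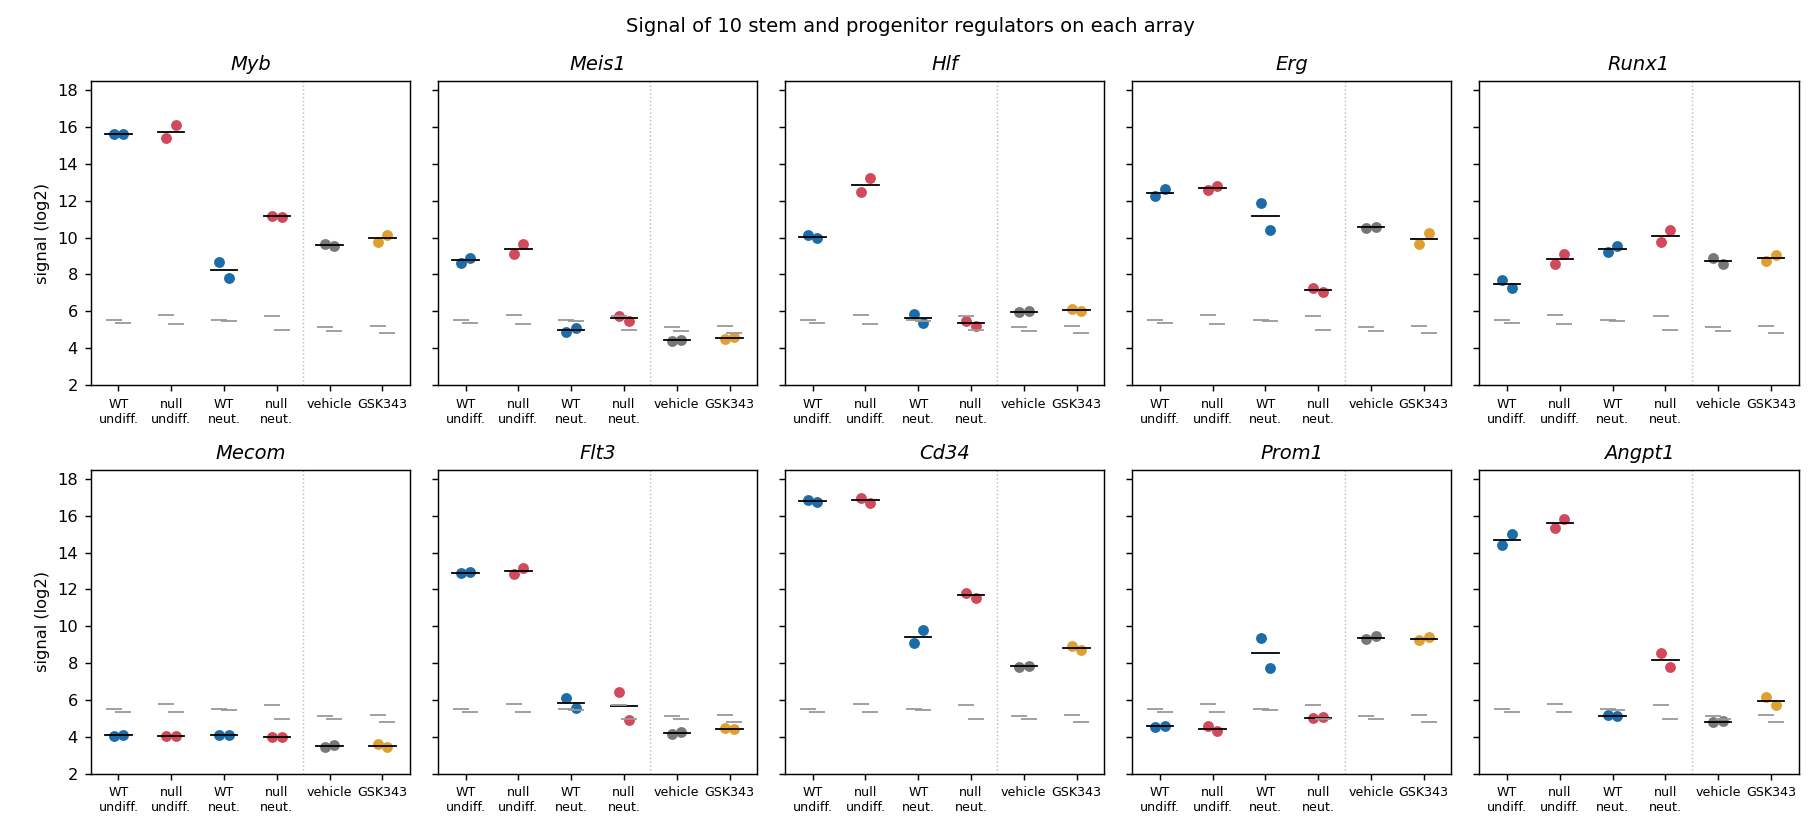
Signal (log2, vertical axis) of each of the 10 genes on every array, by group, with points for the 2 arrays, black lines for their mean and grey dashes for array background; the dotted line separates the 8 genotype arrays from the 4 drug arrays. Most genes are high in undifferentiated cells and low in neutrophils, Runx1 and Prom1 run the other way in wild-type cells, and Mecom sits under background throughout.

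Differentiation of wild-type cells lowered 7 of the 10 genes and raised 2. Myb, Meis1, Hlf, Erg, Flt3, Cd34 and Angpt1 fell, Runx1 and Prom1 rose, and Mecom never exceeded background at either stage. Over all 65956 clusters, 25.3% were called in this comparison by limma at an adjusted p under 0.05 (13% higher and 12.2% lower). The median difference of the members was −4.11 log2 units, against 0.03 over all clusters. In bulk RNA, fewer cells that express a gene and less RNA per cell cannot be told apart.

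Among the transcription factors, Myb signal was 15.64 and 15.63 in wild-type undifferentiated cells and 8.68 and 7.82 in neutrophils. The stages lay far apart, at 167-fold (log2 fold change −7.39, SE 0.292, adjusted p = 5.21e-07). Meis1 went from 8.64 and 8.89 to 4.86 and 5.11, which is under background. This was a fall of at least 9.69-fold, a bound that sets the neutrophil arrays at background (log2 fold change −3.78, SE 0.196, adjusted p = 2.04e-06). Hlf went from 10.12 and 9.98 to 5.88 and 5.37, with 1 of the 2 neutrophil arrays above background. Its log2 fold change was −4.43 (SE 0.244, adjusted p = 2.75e-06), and the groups did not overlap.

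Erg, an ETS factor, changed least among the members that fell. It stood at 12.26 and 12.62 in undifferentiated cells and at 11.89 and 10.41 in neutrophils, so all 4 arrays were far above background and the 2 neutrophil arrays differed by 1.48. The difference was −1.30 (SE 0.406, adjusted p = 0.0442). Without wild-type neutrophil array 2 it was −0.56 (adjusted p = 0.225), and without undifferentiated array 1 or 2 it was −1.48 (adjusted p = 0.0926) or −1.11 (adjusted p = 0.208). With only the 8 genotype arrays in the fit, adjusted p was 0.0858.

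Runx1 was the only transcription factor of the set that rose. It was 7.72 and 7.25 in wild-type undifferentiated cells and 9.20 and 9.57 in neutrophils, a 3.72-fold rise (1.90 log2 units, SE 0.277, adjusted p = 0.00074). Mecom, a zinc finger factor of long-term stem cells, lay between 4.04 and 4.12 on the 6 arrays of undifferentiated cells and wild-type neutrophils. Its values on the other 6 arrays, from 3.45 to 3.99, were under background too, so no fold is given for it in any comparison.

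Among the receptor and surface genes, Flt3 signal went from 12.88 and 12.95 to 6.09 and 5.56 on differentiation of wild-type cells. The neutrophil values were just above background, and the fall was 136-fold (−7.09, SE 0.396, adjusted p = 2.98e-06). Cd34 went from 16.85 and 16.76 to 9.07 and 9.79 (−7.38, SE 0.221, adjusted p = 1.39e-07) and stayed well above background. Prom1, although a stem cell marker by name, was under background in undifferentiated cells (4.56 and 4.61) and clearly measured in neutrophils (9.37 and 7.74). It rose at least 8.66-fold (log2 difference 3.97, SE 0.403, adjusted p = 7.86e-05), with the 2 neutrophil arrays 1.63 apart. The ligand gene Angpt1 changed most of all: it was 14.39 and 15.01 in undifferentiated cells and under background in neutrophils (5.17 and 5.12). That is a fall of at least 593-fold (−9.56, SE 0.295, adjusted p = 1.51e-07).

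**Figure D2:**
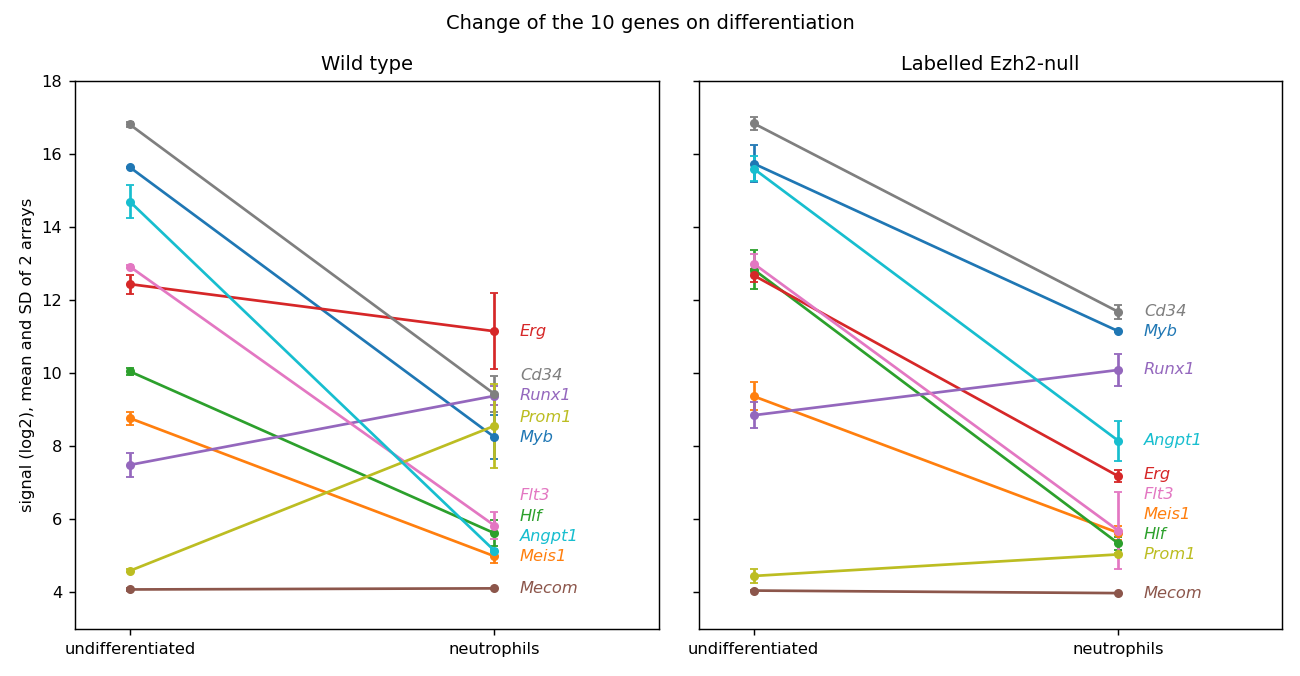
Mean signal (log2, vertical axis, bars are SD over 2 arrays) of the 10 genes in undifferentiated cells and neutrophils, for wild-type cells (left) and cells labelled Ezh2-null (right), with 1 coloured line per gene. Erg falls to 11.15 in wild-type neutrophils and to 7.18 in the labelled-null ones, while Prom1 rises on the left and stays near background on the right.

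In cells labelled Ezh2-null, differentiation lowered the same 7 genes, raised Runx1 and left Prom1 and Mecom uncalled. The background share was 22.4% of clusters (11.7% higher and 10.7% lower), and the members' median difference was −4.88 against 0.01 over all clusters. Myb went from 15.39 and 16.09 to 11.17 and 11.14 (−4.59, SE 0.292, adjusted p = 1e-05), so it ended well above background. Cd34 likewise ended at 11.81 and 11.55, after 16.97 and 16.72 (−5.17, SE 0.221, adjusted p = 1.09e-06). Angpt1 went from 15.36 and 15.85 to 8.54 and 7.77 (−7.45, SE 0.295, adjusted p = 7.05e-07). These 3 genes were thus still measured in labelled-null neutrophils on both arrays.

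Hlf and Erg fell by more in these cells than in wild type, a difference that was itself past the threshold in the test of genotype by stage. Hlf went from 12.46 and 13.22 to 5.46 and 5.22, with 1 of these 2 arrays above background (−7.50, SE 0.244, adjusted p = 2.06e-07). Erg went from 12.56 and 12.80 to 7.29 and 7.06 (−5.50, SE 0.406, adjusted p = 2e-05), and here the replicates lay within 0.24 of each other. Flt3 went from 12.82 and 13.18 to 6.44 and 4.94, the second of which is under background (−7.31, SE 0.396, adjusted p = 4.18e-06). Meis1 fell from 9.10 and 9.65 to 5.76 and 5.50 (−3.74, SE 0.196, adjusted p = 3.55e-06), just above background.

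Runx1 rose from 8.59 and 9.11 to 9.78 and 10.39 in cells labelled Ezh2-null (1.24, SE 0.277, adjusted p = 0.0109). The call was lost without undifferentiated array 1 (0.98, adjusted p = 0.0697), without neutrophil array 2 (0.93, adjusted p = 0.0838) and with only the 4 arrays compared (adjusted p = 0.0754). Prom1 was 4.58 and 4.33 in undifferentiated cells and 5.02 and 5.06 in neutrophils, with 1 of these 4 arrays above background. The difference of 0.58 had a 95% interval from −0.33 to 1.49 (adjusted p = 0.387).

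In undifferentiated cells 2 of the 10 genes, Hlf and Runx1, were higher in Ezh2-/- than in wild-type arrays, and none was called lower. Over all clusters 2.99% were called (1.65% higher and 1.34% lower). The members' median difference was 0.17, against −0.01 over all clusters. Hlf was 12.46 and 13.22 in Ezh2-/- cells against 10.12 and 9.98 in wild type, 6.91-fold higher (2.79, SE 0.244, adjusted p = 0.000292). The groups lay over 2 log2 units apart, although with only these 4 arrays in the fit adjusted p was 0.0539.

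Runx1 was 8.59 and 9.11 in Ezh2-/- undifferentiated cells against 7.72 and 7.25 in wild type, 2.57-fold higher (1.36, SE 0.277, adjusted p = 0.0324). This call was lost without wild-type array 1 (1.60, adjusted p = 0.0736), wild-type array 2 (1.13, adjusted p = 0.206) or Ezh2-/- array 2 (1.11, adjusted p = 0.105). It was also lost with only the 8 genotype arrays (adjusted p = 0.102). The number of members called was then 1 in place of 2 without each of those 3 arrays. In each of the 3 fits Hlf was the gene called.

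Angpt1 (15.36 and 15.85 against 14.39 and 15.01) and Meis1 (9.10 and 9.65 against 8.64 and 8.89) were higher on both Ezh2-/- arrays but were not called. Their differences were 0.90 (95% interval 0.23 to 1.57, adjusted p = 0.206) and 0.60 (0.16 to 1.05, adjusted p = 0.201). Without Ezh2-/- array 1, Meis1 was called, at 0.88 (adjusted p = 0.0373), and the number of members called was 3. For the remaining measured genes the groups overlapped. The intervals ran from −0.56 to 0.76 for Myb, from −0.68 to 1.15 for Erg, from −0.81 to 0.98 for Flt3 and from −0.46 to 0.54 for Cd34. Prom1 and Mecom were under background in both genotypes.

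Marker lists of maturation also differed between the undifferentiated genotypes. Of 5 primary granule genes 3 were lower in Ezh2-/- arrays (median −3.56), namely Ms4a3 (−6.86), Ctsg (−4.00) and Elane (−3.56). The list summed to 16.86 and 17.33 against 18.18 and 18.31. The 2 Ezh2-/- arrays lay apart on these genes, though each was below both wild-type arrays. They were at 9.16 and 6.62 for Ms4a3, 13.57 and 10.87 for Ctsg and 7.45 and 5.86 for Elane. Of 14 neutrophil maturation genes 2 were higher and 2 lower. S100a9 (3.66) and Ltf, which was under background in wild type, were higher, and Mmp8 (−6.43) was lower. Among 10 mast cell and basophil markers 2 were higher and 1 lower. Prss34 was higher (2.84) and Mcpt8 lower (−4.67), with both genes above background on every array compared. Gata1 was called higher too, but was under background on all of these arrays. The list summed to 18 and 18.33 against 18.80 and 18.90. Nearly all of these sums was Cpa3 (17.95 and 18.26 against 18.75 and 18.86). The erythroid and megakaryocyte list had a median difference of 0.29 and the cell cycle list one of −0.24. The part of these lists in the values of Hlf and Runx1 was not tested.

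In neutrophils, 5 of the 10 genes differed by genotype label. Myb, Cd34 and Angpt1 were higher in neutrophils labelled Ezh2-null, and Erg and Prom1 were lower. The background share was 11.8% of clusters, with 6.75% higher and 5.06% lower. The members' median difference was 0.26, against −0.03 over all clusters. These 5 calls were made in each of the 4 fits that left out 1 array. The comparison shares its wild-type arrays with wild-type differentiation and its labelled-null arrays with the differentiation of Ezh2-null cells.

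Myb stood at 11.17 and 11.14 in labelled-null neutrophils against 8.68 and 7.82 in wild type, 7.48-fold higher (2.90, SE 0.292, adjusted p = 0.000282). Cd34 stood at 11.81 and 11.55 against 9.07 and 9.79, 4.75-fold higher (2.25, SE 0.221, adjusted p = 0.000249). In both genes the labelled-null values lay between wild-type neutrophils and undifferentiated cells. Angpt1 stood at 8.54 and 7.77 against 5.17 and 5.12, which is under background. It was at least 6.32-fold higher (3.01, SE 0.295, adjusted p = 0.000247). Its receptor gene Tek was under background on all 12 arrays.

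Erg stood at 7.29 and 7.06 in labelled-null neutrophils against 11.89 and 10.41 in wild type, 15.7-fold lower (−3.97, SE 0.406, adjusted p = 0.000309). The gap between the groups was larger than the 1.48 between the wild-type arrays. Prom1 stood at 5.02 and 5.06 against 9.37 and 7.74 (−3.52, SE 0.403, adjusted p = 0.000583). Of the 2 labelled-null arrays 1 was above background, and only just, so no fold is given. Leaving out 1 array moved the Erg difference between −4.71 and −3.23 and the Prom1 difference between −4.33 and −2.71.

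The other 5 genes were not called between the neutrophils. Meis1 was 5.76 and 5.50 against 4.86 and 5.11 (0.65, 95% interval 0.20 to 1.09, adjusted p = 0.0691), and Runx1 was 9.78 and 10.39 against 9.20 and 9.57 (0.71, 0.08 to 1.33, adjusted p = 0.163). For these genes the labelled-null arrays were both higher. Hlf (5.46 and 5.22 against 5.88 and 5.37) and Flt3 (6.44 and 4.94 against 6.09 and 5.56) overlapped between groups near background. Their intervals ran from −0.83 to 0.27 and from −1.03 to 0.76.

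Markers of other cell types moved with these differences. In labelled-null neutrophils 10 of 10 measured mast cell and basophil markers were higher (median 4.51) and 8 of 11 erythroid and megakaryocyte markers (median 3.22). The 3 not called were the megakaryocyte genes Pf4 (−0.94), Gp9 (1.70) and Vwf (0.01). Of the megakaryocyte genes only Itga2b (1.75) was called higher. All 11 measured cell cycle genes were higher as well (median 2.92). Mast cell and basophil markers were above background on both arrays for 9 of 10 genes in labelled-null and 2 of 10 in wild-type neutrophils. Their summed signal lay between 19.38 and 19.42 in labelled-null neutrophils and between 12.07 and 13.64 in wild-type ones. It lay between 18.80 and 18.90 in wild-type undifferentiated cells, where Cpa3 alone was 18.75 and 18.86. There 5 of 10 markers were above background on neither array, and the median signal was 5.88, against 10.81 in labelled-null neutrophils. Erythroid and megakaryocyte markers summed to 17.53 and 17.77 against 9.85 and 12.17. Of these sums, Car2 alone was 17.06 and 17.23 in labelled-null neutrophils, and Pf4 alone 8.97 and 12.01 in wild-type ones. Car2 was also high in undifferentiated cells, at 15.58 and 15.51 in wild type and 15.71 and 15.27 in Ezh2-/- arrays. Cell cycle genes summed to 17.44 and 17.66 against 14 and 15.04. By contrast, 6 of 14 neutrophil maturation genes and 5 of 9 monocyte and macrophage markers were lower. The part of these lists in the differences of Myb, Cd34, Angpt1, Erg and Prom1 was not tested. Endothelial markers, which matter for Erg and Tek, were under background on both arrays in every group for 7 of 8 genes, Pecam1 being the exception.

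**Figure D3:**
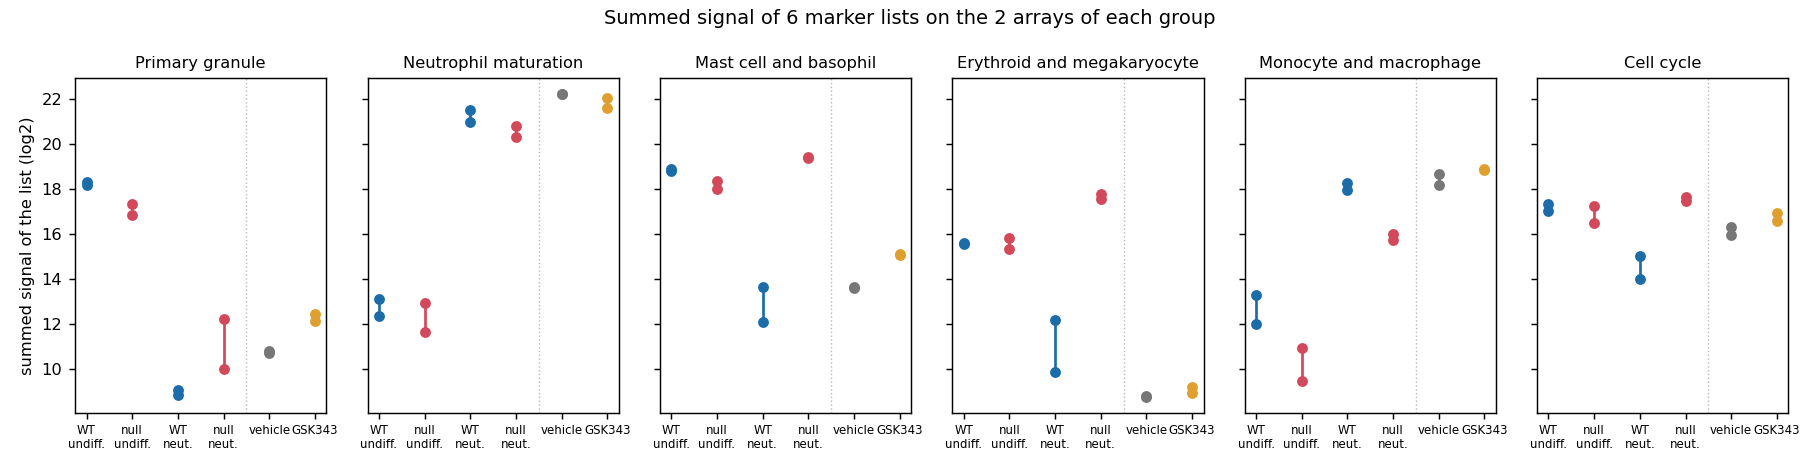
Summed signal (log2 of the summed linear signal, vertical axis) of 6 marker lists, with 1 point per array joined within a group; the dotted line separates genotype and drug arrays. The mast cell and erythroid lists are at 19.38 or above and at 17.53 or above in labelled-null neutrophils, higher than on either wild-type neutrophil array. Most of the mast cell sum there is Cpa3, and most of the erythroid sum is Car2.

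The difference between the genotype effects at the 2 stages was tested directly and was called for 6 of the 10 genes, against 4.41% of all clusters (2.77% higher and 1.65% lower). It was positive for Myb (2.80, SE 0.412, adjusted p = 0.00605), Cd34 (2.21, SE 0.313, adjusted p = 0.00491) and Angpt1 (2.11, SE 0.417, adjusted p = 0.0236). It was negative for Erg (−4.21, SE 0.574, adjusted p = 0.00411), Prom1 (−3.39, SE 0.569, adjusted p = 0.0113) and Hlf (−3.07, SE 0.345, adjusted p = 0.00155). Hlf therefore differed by genotype in undifferentiated cells and Erg in neutrophils, with the difference of the effects itself past the threshold in each case. These are fitted differences, and for Prom1, Hlf and Angpt1 they include groups at or under background.

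The call for Angpt1 was lost without wild-type undifferentiated array 2 (1.80, adjusted p = 0.0901), without wild-type neutrophil array 1 (2.13, adjusted p = 0.0688) or 2 (2.08, adjusted p = 0.0555), and without labelled-null neutrophil array 1 (1.72, adjusted p = 0.0558). With only the 8 genotype arrays, adjusted p was 0.0813 for Angpt1 and 0.0593 for Prom1. For Meis1, Runx1, Flt3 and Mecom the difference of effects was not called. Its interval was −0.58 to 0.67 for Meis1, −1.54 to 0.23 for Runx1 and −1.49 to 1.04 for Flt3.

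GSK343 against vehicle in wild-type neutrophils gave no call by limma among the 10 genes, and 0.00152% of all clusters (1 cluster, with 0.00152% higher and 0% lower) were called. At an unadjusted p under 0.05, 2 members differed, Cd34 and Angpt1, against 6.01% of all clusters. Cd34 was 8.95 and 8.69 with GSK343 against 7.82 and 7.86 with vehicle (0.98, 95% interval 0.48 to 1.48, adjusted p = 0.358). Angpt1 was 6.14 and 5.73 with GSK343, above background, against 4.81 and 4.86 with vehicle, under it (1.10, 0.44 to 1.77, adjusted p = 0.474). In both genes the 2 GSK343 arrays lay above the 2 vehicle arrays. However, the groups did not overlap for Myb, Hlf and Erg either, nor for Meis1 and Flt3, which were under background. The share of all clusters without overlap was not computed, so this separation is not read as a result. Both genes were called higher in labelled-null neutrophils, and neither was called with GSK343. The comparisons share no arrays. The difference between them was tested in a further contrast, given below, but their likeness was not tested.

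The other members showed smaller differences with GSK343. Myb was 9.79 and 10.14 against 9.63 and 9.56 (0.37, −0.29 to 1.03), and Erg was 9.64 and 10.25 against 10.55 and 10.60 (−0.63, −1.55 to 0.28). Prom1 was well above background on all 4 drug arrays, at 9.25 and 9.41 against 9.33 and 9.45 (−0.06, −0.97 to 0.85). Runx1 (8.74 and 9.04 against 8.92 and 8.56) and Hlf (6.10 and 6.03 against 5.96 and 6.01) had intervals of −0.48 to 0.77 and −0.47 to 0.63. Meis1, Flt3 and Mecom were under background on all 4 drug arrays. The 1 cluster called was Cpa3, a mast cell protease gene on the mast cell list (2.99), named after its value was seen. Summed mast cell and basophil signal was 15.08 to 15.13 with GSK343 and 13.59 to 13.64 with vehicle. Most of the GSK343 sum was Cpa3 itself (14.88 and 14.79, against 11.76 and 11.93 with vehicle), and the list's median difference was 0.23. Primary granule genes summed to 12.13 to 12.44 against 10.71 to 10.79, and cell cycle genes to 16.57 to 16.91 against 15.95 to 16.30. Their part in the values of Cd34 and Angpt1 was not tested.

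**Figure D4:**
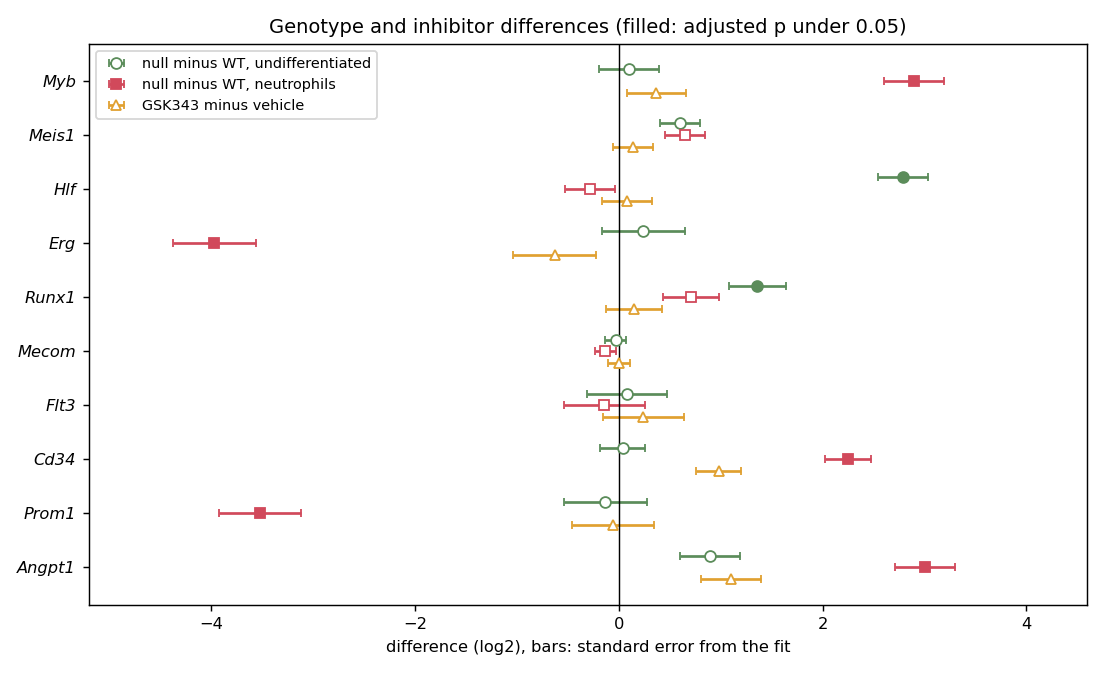
Differences in signal (log2, horizontal axis) of the 10 genes for genotype in undifferentiated cells (circles), genotype label in neutrophils (squares) and GSK343 against vehicle (triangles), with bars for the standard error; filled symbols have an adjusted p under 0.05. Filled symbols are Hlf and Runx1 in undifferentiated cells and Myb, Erg, Cd34, Prom1 and Angpt1 in neutrophils, and no triangle is filled.

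The genotype difference in neutrophils was set against the GSK343 difference in 1 further contrast, called for 4 of the 10 genes and 3.3% of all clusters (1.97% higher and 1.33% lower). The contrast was positive for Myb (2.53, SE 0.412, adjusted p = 0.0114) and Angpt1 (1.91, SE 0.417, adjusted p = 0.0433). It was negative for Erg (−3.34, SE 0.574, adjusted p = 0.0147) and Prom1 (−3.46, SE 0.569, adjusted p = 0.0119). The GSK343 difference was itself not called for any of these 4 genes. For Angpt1 and Prom1 the contrast includes arrays at or under background. For Cd34 the contrast was 1.27 (0.56 to 1.97, adjusted p = 0.0705), and it was called without wild-type neutrophil array 2 (1.62, adjusted p = 0.0107). None of the 10 genes was called without vehicle array 1 or without vehicle array 2, when adjusted p for Myb, Erg and Prom1 lay between 0.0537 and 0.0665. Without GSK343 array 1, 2 genes were called (Erg and Prom1), and without array 2, 1 gene (Myb). Without labelled-null array 2 the Erg call was lost (adjusted p = 0.0638). The Angpt1 call was also lost without either wild-type neutrophil array and without labelled-null array 1, and with an intensity trend and robust prior in the variance model (adjusted p = 0.0566).

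Within the 8 genotype arrays the order of the 4 groups differed from gene to gene. For Myb and Cd34 the undifferentiated groups were highest and did not differ from each other beyond their spread, followed by labelled-null and then wild-type neutrophils. Angpt1 had its groups in a like order, with the undifferentiated groups not called apart and wild-type neutrophils under background. For Erg the undifferentiated groups were also highest, but wild-type neutrophils came next and labelled-null neutrophils were last. Hlf was highest in Ezh2-/- and next in wild-type undifferentiated cells, and its neutrophil groups overlapped. Flt3 and Meis1 separated the stages, with no genotype call at either. For Flt3 the genotypes overlapped at both stages, whereas Meis1 was higher on both Ezh2-/- or labelled-null arrays at each. Runx1 rose in the order wild-type undifferentiated, Ezh2-/- undifferentiated, wild-type neutrophils and labelled-null neutrophils, and the last 2 were not called apart. The middle 2 groups lay close together and were not compared. Prom1 was high in wild-type neutrophils alone among these 4 groups.

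The genes whose values ran closest to each member were found among 14698 other genes, by the root mean square difference over the 8 arrays after each gene was centred on its mean. Myb and Cd34 were each among the 2 closest genes of the other (0.54 log2 units). Hlf was closest to Aebp1 (0.33), Meis1 to Sccpdh (0.18), Runx1 to Trio (0.16) and Cd34 to Cnn3 (0.42). For Erg the closest gene, Calcrl, was 0.83 away, and for Angpt1 the myeloperoxidase gene Mpo was 0.77 away. Flt3 was closest to Ebf1, a B-lineage transcription factor gene (0.39). Prom1 was closest to Ighv1-53 (0.13) and Rgs5 (0.20), each of which was high in wild-type neutrophils (8.11 and 8.35). These distances describe 8 arrays in 4 groups and carry no test.

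Of 19 measured partners and paralogs of the members, 4 rose and 7 fell on wild-type differentiation (median −0.03). Mybl2, a Myb paralog of dividing cells, fell by 4.91 log2 units (SE 0.416, adjusted p = 2.78e-05), and Nfil3, a relative of Hlf, rose by 1.69 (SE 0.198, adjusted p = 0.000185). Flt3l, the FLT3 ligand gene, rose by 1.09 (adjusted p = 0.0179) while its receptor gene fell. By genotype in undifferentiated cells 2 of 19 were called higher. Pbx3 differed by 1.06 (SE 0.131, adjusted p = 0.0023). Podxl, a relative of Cd34, was above background on 1 of the 4 arrays compared (adjusted p = 0.00365), so its difference is not given. In neutrophils 2 rose and 3 fell. Mybl2 was higher in labelled-null neutrophils (2.50, adjusted p = 0.00442), as Myb was. Pbx3, a partner of MEIS1, was higher too (1.37, SE 0.131, adjusted p = 0.000213). Fli1, the closest relative of Erg, was lower (−0.89, adjusted p = 0.0107), as was Cbfb, the partner of RUNX1 (−1.06, adjusted p = 0.0111). Prdm16, the relative of Mecom, was not called in any comparison. Runx2 and Hoxa9 lack a row annotated to them alone and were not analysed here.

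Among 22 other stem and progenitor transcription factor genes, 12 fell and none rose on wild-type differentiation (median −0.74), led by Sox4 (−7.15), Myc (−7.14) and Mllt3 (−3.65). In undifferentiated cells 4 were higher and 3 lower in Ezh2-/- arrays (median 0.07), with Gata2 at 1.53 (adjusted p = 0.0356). Bcl11a (7.09 and 8.12 in Ezh2-/- arrays) and Zfp521 (5.73 and 6.29) were called higher too, but both were under background in wild type, and Zfp521 on 1 Ezh2-/- array as well. In labelled-null neutrophils 8 were higher and 4 lower (median 0.14), with Gfi1b at 4.44 (adjusted p = 0.00137), Gata2 at 4.15 (adjusted p = 6.34e-05). Bcl11a was 8.27 and 8.73 there and under background in wild-type neutrophils (adjusted p = 5.53e-05). Gata2 and Gfi1b also serve mast, erythroid and megakaryocyte cells. Of 13 measured surface and secreted genes, 3 rose and 4 fell on wild-type differentiation (median −0.07), among them Kit, the stem cell factor receptor gene (−7.45), and Muc13, which went from 16.38 and 16.90 to under background. In labelled-null neutrophils 5 were higher and 2 lower (median −0.02), with Kit at 5.35 (adjusted p = 3.82e-06), Adgrg1 at 3.88 and Cd48 at −5.88. GSK343 against vehicle gave no call by limma among these 3 lists, with medians of −0.01, −0.04 and 0.16 and with 2 of 19, 1 of 22 and 2 of 13 genes at an unadjusted p under 0.05, against 6.01% of all clusters.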

How the data were processed

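RNA of 12 samples was hybridised to Affymetrix Mouse Transcriptome arrays, 2 per group. The deposited values are log2 signals, made by the authors with Affymetrix Expression Console and Transcriptome Analysis Console, per the submitters' processing notes. Tool versions, the summarisation and normalization methods and the build were not given in the sources used here.

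Of 72688 entries, 6732 control entries were left out and 65956 transcript clusters were tested. One symbol was annotated to 30604 clusters, several to 2146 and none to 33206. Of the first, 22818 were matched to RefSeq by Entrez ID and 827 symbols were updated, giving 30142 genes. The brightest cluster by mean stood for a gene. Group means of the 6 groups were fitted with limma 3.58.1 (R 4.3.3) on all 12 arrays (6 residual and 3.06 prior degrees of freedom). P-values were adjusted by Benjamini-Hochberg over all clusters, and a call is an adjusted p under 0.05. Intervals are 95% intervals from that fit. Background was taken per array as the 95th percentile over 23 antigenomic controls. The number of arrays limits the precision. The limma fit was checked on simulated data for genotype in undifferentiated cells only.

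All 10 members are described. Of other lists, at most the 3 called genes with the largest change in a comparison are named. Direct partners are named besides, as are genes that show what a pooled count or sum rests on. The closest gene is the one with the smallest root mean square difference. Members and lists were chosen with earlier results of these data known. Alternatives were other normalizations, a filter on dim clusters, fewer arrays in the fit, another variance model, other background limits, a replicate block and leaving out each array.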

Additional observations from a re-analysis of the deposited data

Results flagged for a closer look

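For 6 genes the genotype difference in neutrophils was not the same as in undifferentiated cells, by the test of the difference of the 2 effects (limma, over all clusters). The difference of effects was 2.80 log2 units for Myb, 2.21 for Cd34 and 2.11 for Angpt1, each called higher in neutrophils labelled Ezh2-null. It was −4.21 for Erg and −3.39 for Prom1, both called lower in labelled-null neutrophils, and −3.07 for Hlf, which was higher in Ezh2-/- undifferentiated cells. Prom1 was under background in undifferentiated cells of both genotypes, and Hlf lay near background in both neutrophil groups. For these genes the difference of effects thus comes mainly from the other stage. The calls for Angpt1 and Prom1 were lost with only the 8 genotype arrays in the fit. The directions rest on the label of neutrophils whose Ezh2 signal was not below that of wild type.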

How the results depend on the processing

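Of 34 calls among the 70 member results, 24 held under every alternative run, 10 were lost under at least 1 and none reversed; 2 calls were gained. In undifferentiated cells the number of members called by genotype fell from 2 to 0 with only the 4 arrays compared and to 1 with the 8 genotype arrays, and ranged from 1 to 3 with 1 array left out. For genotype against drug it ranged from 0 to 4 with 1 array left out. Reversals touched 11 uncalled results. Quantile normalization gave −0.08 for Myb and −0.28 for Cd34 by genotype in undifferentiated cells, −0.02 for Mecom on wild-type differentiation and −0.12 for Meis1 by stage, and median centring gave −0.03 for Mecom on wild-type differentiation. With 1 array left out, values in undifferentiated cells ran from −0.25 to 0.45 for Myb, −0.09 to 0.16 for Cd34 and −0.10 to 0.27 for Flt3. Flt3 ran from −0.89 to 0.61 in neutrophils, −0.97 to 0.53 by stage and −1.13 to 0.37 for genotype against drug, and Meis1 from −0.23 to 0.32 by stage. With GSK343, Mecom ran from −0.07 to 0.07, Prom1 from −0.14 to 0.02 and Runx1 from −0.03 to 0.33. With the replicate number as a block, Erg on wild-type differentiation (adjusted p = 0.0613) and Angpt1 for genotype against drug (adjusted p = 0.0670) lost their calls, so 8 and 3 members were called in place of 9 and 4. Deviations of same-numbered arrays correlated over 0.1 in 5 of 15 group pairs (−0.252 to 0.185), and in 3 of the 7 pairs within the genotype or the drug arrays (0.118, 0.103 and 0.185), so a pairing was not taken as shown. Over all clusters, calls by genotype in undifferentiated cells numbered 1969, against 351 with the 4 arrays and 1061 with the 8, and those on differentiation of Ezh2-null cells 14799 against 7591 with the 4 arrays. Calls by stage numbered 2911, against 1352 with the 8 arrays. The mean of all rows was not run, since each member has 1 row, and Mecom left the test under the dim filter. Another background limit left 79 or 78 of the 120 values above it, in place of 86.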

Other observations

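Ebf1, the gene closest to Flt3, changed by −7.12 log2 units on differentiation of wild-type cells and by −7.19 in Ezh2-null cells, and no genotype difference was called at either stage. Pecam1, the endothelial and myeloid adhesion gene, was 12.16 and 12.32 in wild-type undifferentiated cells against 7.35 and 6.23 in Ezh2-/- ones (−5.45). Pdgfrb, a stromal receptor gene, was above background in undifferentiated cells of both genotypes and fell by 5.07 on wild-type differentiation. These genes were chosen after their values were seen.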
